A study of Mus musculus with 8 samples.

Results

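The cytoplasmic ribosomal protein genes were followed through the epithelium and stroma of mouse uteri with and without Ezh2. They were chosen by name: symbols made of Rpl or Rps and a number, together with Rpsa and the stalk genes Rplp0, Rplp1 and Rplp2, and without the ribosomal S6 kinases. This gave 83 of the 5828 genes found in any of the 4 deposited tables, 49 with large-subunit and 34 with small-subunit names. The name rule uses no measured value. Of the 83 genes, 77 encode the standard proteins of the ribosome. The others are the paralogs Rpl7l1, Rpl22l1, Rpl36al and Rps27l, the retrogene copy Rps27rt, and Rps19bp1, which carries the name but encodes a nucleolar protein that binds Rps19 and is no subunit.

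The measurement was Visium, in which barcoded spots under a frozen tissue section capture polyadenylated RNA and each captured molecule is counted once by its unique molecular identifier (UMI). Several cells, also of different types, can lie over 1 spot. Uteri came from 4 wild-type mice (WT, EZ fl/fl) and 4 Ezh2cKO mice (KO, EZ fl/fl; Prcre/+), all of mixed C57BL/6 and 129SvEv strain. Every mouse of either genotype thus carried the floxed Ezh2 alleles, and all were ovariectomized at postnatal day 71 ± 4 and their uteri taken at postnatal day 112 ± 11, with KO and WT females drawn from the same 4 litters. Prcre is a Cre allele of the progesterone receptor gene, so that recombination follows the cells that express this receptor and is not limited to 1 compartment. Ezh2 encodes the histone methyltransferase of Polycomb repressive complex 2.

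The authors compared spots they named epithelium or stroma and deposited 1 average per gene and group, pooled over the animals of a genotype. Each gene thus has 1 value per pool, and the variation among animals is not measured. From the deposited values the pooled UMI sums were recovered. Levels below are UMIs divided by the depth of the pool relative to WT stroma (2.75 for KO epithelium, 2.54 for WT epithelium and 2.01 for KO stroma), and ratios are log2 ratios of these levels. Brackets hold 95% Clopper-Pearson intervals, which cover counting error only. A gene is called where the adjusted p-value in the authors' deposited table is under 0.05. Whether these p-values count spots or animals is not given in the sources used here, and if they count spots they measure the spread between spots. Only adjusted p-values were read.

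Every listed gene had an average above 1 in at least 1 of the groups compared, which let nearly all members in. All 83 were listed among the 5811 genes for KO against WT epithelium, 81 among 1191 for KO against WT stroma, 81 among 1769 for WT epithelium against WT stroma and 82 among 2744 for KO epithelium against KO stroma. The gap was made by Rpl7l1 and Rps19bp1, the members with the fewest UMIs near this limit. Rps19bp1, listed for the epithelium alone, had 81 UMIs in KO and 86 in WT. Rpl7l1 had 170 UMIs in KO epithelium, 155 in WT epithelium and 123 in KO stroma. The other 81 members were listed in all 4 tables, and their sums ran from 147 UMIs for Rps27rt in WT stroma to 13946 for Rplp1 in KO epithelium.

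The compartment names were held against marker genes. Epithelial markers (keratins, claudins, Epcam and others, 11 of 15 listed with values in every pool) summed to 3388 (KO) and 3931 (WT) depth-scaled UMIs in the epithelium and to 1029 (KO) and 460 (WT) in the stroma. Endometrial stroma markers such as Dcn and Col1a1 (10 of 10) summed to 3394, 2472, 6545 and 7584 in the same order. Smooth muscle markers (6 of 8) summed to 318, 498, 697 and 1462, immune markers (4 of 9) to 1876, 1211, 3224 and 4325, endothelial markers (2 of 6) to 83.1, 68.5, 168 and 234, and erythrocyte markers (2 of 4) to 50.1, 28.3, 126 and 325. None of these markers was at 0 in any pool. Both compartments were thus enriched for their own markers and mixed, and the epithelial sum in KO stroma was above that in WT stroma. The part of this makeup in the ratios below was not tested, and in pooled spots fewer cells of a type and less RNA per cell cannot be told apart.

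Ribosomal proteins assemble with ribosomal RNA in the nucleolus into a large subunit, which joins amino acids, and a small subunit, which reads the messenger RNA. Cells need the proteins in matched amounts, because each takes a fixed place in the particle and unassembled copies are degraded. Their messenger RNAs are among the most abundant of most cells, and many start with a cytosine followed by a run of pyrimidines, the terminal oligopyrimidine (TOP) motif, through which the growth-sensing kinase mTOR controls their translation. In the uterus, ovarian hormones drive cycles of growth in which protein synthesis rises, and these animals lacked ovaries.

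The start motif that many of these genes share can be seen in the RefSeq promoter table for GRCm38.p6, which matched 63 of the 83 members. A start base C followed by at least 4 pyrimidines was present at a listed start of 14 of the 63 genes (22.2%), against 3.01% of 27025 genes in the table. Starts in such a table can be a few bases off, so that absence of the run at a listed start says only that these letters are not at that base. The following 7 windows hold 40 bases before the start and 20 bases from it on, 5′ to 3′ on the gene's strand, with the pyrimidine run at the start in capitals. They are shown because their genes recur in the results: Rpl35 and Rpl38 had lower values in KO, Rpl14 differed between compartments, Rps6 is the protein phosphorylated by the S6 kinases, Rplp2 belongs to the stalk, and Rps27 and Rps27rt are near-identical copies.
Rpl35 (chr2:39005112-39005171, minus strand): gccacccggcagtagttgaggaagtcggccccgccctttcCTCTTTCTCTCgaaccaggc
Rpl38 (chr11:114668540-114668599, plus strand): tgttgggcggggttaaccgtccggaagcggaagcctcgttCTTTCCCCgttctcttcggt
Rpl14 (chr9:120571477-120571536, plus strand): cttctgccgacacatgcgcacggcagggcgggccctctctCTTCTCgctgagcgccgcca
Rps6 (chr4:86857348-86857407, minus strand): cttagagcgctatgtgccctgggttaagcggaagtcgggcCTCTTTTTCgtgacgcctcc
Rplp2 (chr7:141447611-141447670, plus strand): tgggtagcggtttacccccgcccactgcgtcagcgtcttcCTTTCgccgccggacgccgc
Rps27 (chr3:90213629-90213688, minus strand): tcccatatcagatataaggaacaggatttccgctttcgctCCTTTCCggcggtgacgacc
Rps27rt (chr9:114982720-114982779, minus strand): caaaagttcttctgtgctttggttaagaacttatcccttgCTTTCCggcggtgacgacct

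Other letters near the starts were searched in the same table, over windows of 300 bases on both strands. CTTCCG, the core bound by ETS and GABP factors, was found for 43 of 63 members (68.3%) and for 18.8% of all genes. The TATA box letters TATAAA were found for 7 members (11.1%) and for 15.7% of all genes. CTTCCG itself opens with C and 4 pyrimidines, so that it can overlap the start motif. Read on the other strand TATAAA is TTTATA, whose first letters can also overlap the run. A match describes the sequence and is no evidence of binding.

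The ribosomal protein genes supplied a large share of the captured RNA in every pool. Over the 1167 genes listed in all 4 tables, the 81 members held 42.0% of UMIs (interval 41.9 to 42.1) in KO and 41.8% (41.7 to 41.9) in WT epithelium, and 41.6% (41.5 to 41.7) in KO and 39.0% (38.8 to 39.1) in WT stroma. WT stroma thus lay below the other 3 pools, whose shares were close to each other. The share of the 10 mitochondrially encoded genes listed in all tables was 7.80%, 5.42%, 5.80% and 4.43% in the same order, so that it was also lowest in WT stroma. These shares depend on which genes are in the sum: over all genes listed for a pool, whose number is lowest for WT stroma, the members held 28.9%, 27.6%, 34.1% and 35.4%, which puts WT stroma highest.

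Large-subunit genes gave 56.9% of the members' UMIs in KO and 57.1% in WT epithelium, and 56.5% in KO and 57.2% in WT stroma. That is 1.32, 1.33, 1.30 and 1.34 large-subunit UMIs per small-subunit UMI, so that the balance of the subunits was nearly the same in all pools. The 10 members with most UMIs held between 22.1% of the family's UMIs in KO epithelium and 24.1% in WT stroma. Rplp1, the gene with most UMIs, held 3.11% of them in KO epithelium and 3.62% in KO stroma.

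Single members spanned a wide range of depth-scaled UMIs, which count captured 3′ ends and are not scaled by length. In KO epithelium the levels ran from 137 for Rps27rt over a median of 1922 to 5062 for Rplp1. In WT epithelium they ran from 123 for Rps27rt over 1823 to 4801 for Rplp1, in KO stroma from 157 for Rps27l over 1969 to 5813 for Rplp1, and in WT stroma from 147 for Rps27rt over 1681 to 5111 for Rplp1. The paralogs Rpl22l1, Rpl36al, Rps27l and Rps27rt were at the low end in every pool, and the acidic stalk protein gene Rplp1 gave most UMIs in every pool.

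**Figure D1:**
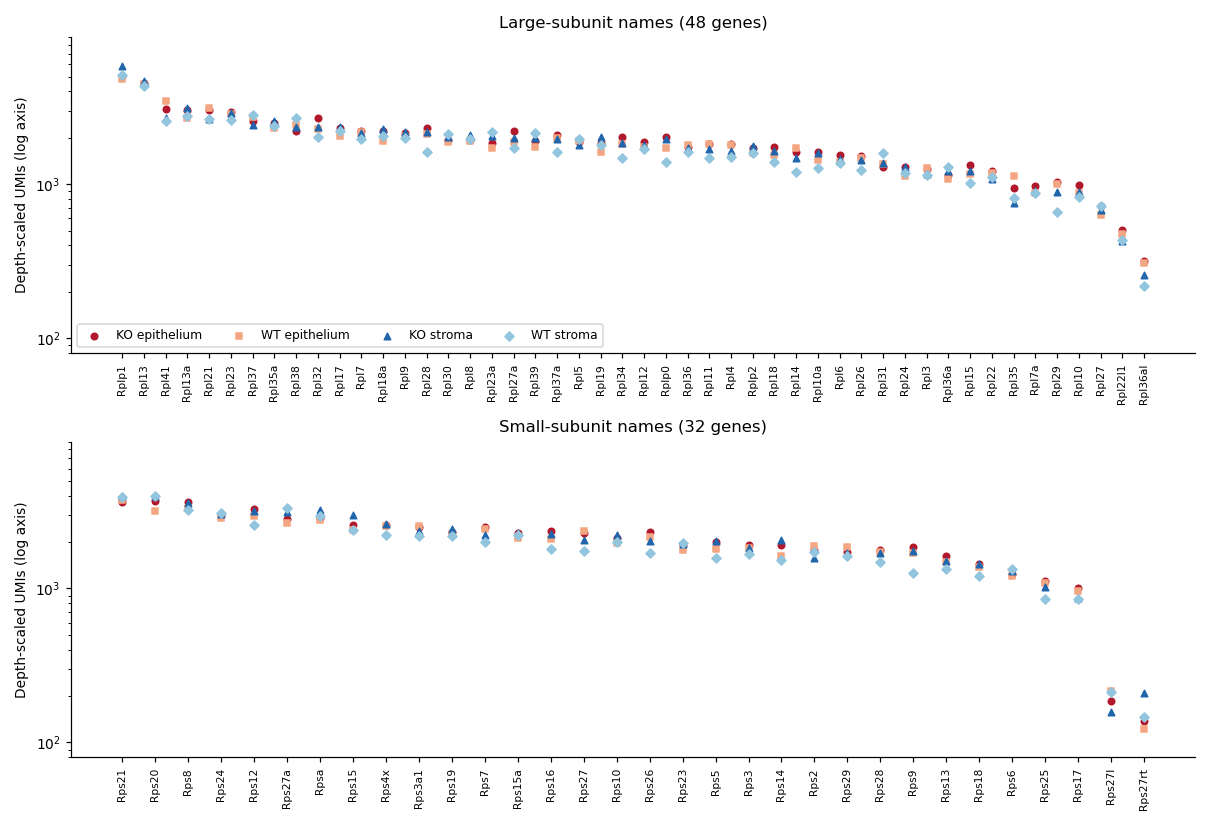
Level of 80 of the 81 ribosomal protein genes listed in all 4 tables (y axis, depth-scaled UMIs on a log axis), ordered by mean level within large-subunit (top) and small-subunit names (bottom). Each symbol is 1 pool of spots from 4 animals, without error bars; the 4 symbols of a gene lie close together compared with the range from 123 to 5813 across genes.

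Between KO and WT epithelium, no ribosomal protein gene was called. The whole table held 7 called genes of 5811, a background of 0.12% (0.0688% called higher in KO), so that 0 of 83 says little about the family. Every member had an adjusted p-value of 1 in the authors' deposited table. The members' values nevertheless leaned to KO: 66 of 83 (79.5%) were higher in KO epithelium, against 35.2% of all listed genes, and their median log2 ratio was 0.08, against -0.10 for all genes and -0.11 for genes outside the family. The 26 genes outside the family that were counted as deeply, described below, had a median of 0.09 in this comparison. A median above 0 was thus not particular to the family. When ratios were centred on the median of all listed genes, 78 of 83 (94.0%) were higher and 5 lower. Such centring places as many listed genes above 0 as below it, so the 35.2% is no background for the centred count. Summed over the family, the level in KO was 1.05-fold that in WT epithelium (log2 0.07, interval 0.06 to 0.08).

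The spread within the family was narrow. Log2 ratios ran from -0.25 to 0.24 with a standard deviation of 0.11 across genes, and the middle 50% of genes lay between 0.02 and 0.15. Large-subunit genes had higher values in KO for 39 of 49 with a median of 0.08, small-subunit genes for 27 of 34 with a median of 0.07, a difference of 0.00 between the medians.

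The highest ratios belonged to Rps14, a small-subunit protein of the decoding platform, to Rplp0, the base of the stalk that recruits elongation factors, and to the large-subunit genes Rpl32 and Rpl27a. Rps14 stood at 1922 depth-scaled UMIs in KO and 1626 in WT epithelium, a log2 ratio of 0.24 [0.18, 0.30]. Rplp0 stood at 2027 and 1720, a log2 ratio of 0.24 [0.18, 0.29]. Rpl32 and Rpl27a each had a log2 ratio of 0.23. None of the 4 passed the authors' threshold.

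At the other end lay Rpl35, which sits at the rim of the tunnel through which the new protein leaves, with 951 depth-scaled UMIs in KO and 1131 in WT epithelium, a log2 ratio of -0.25 [-0.33, -0.17]. The paralog Rps27l, a target of p53, had 187 and 217, a log2 ratio of -0.22 [-0.40, -0.04]. Rpl41, which encodes a very short basic peptide at the subunit interface, had 3067 and 3483, a log2 ratio of -0.18 [-0.23, -0.14]. Rpl38, known for its need in the translation of Hox messenger RNAs in the mouse embryo, had 2205 and 2427, a log2 ratio of -0.14 [-0.19, -0.09]. These 4 values were lower in KO epithelium also after centring, and none passed the authors' threshold.

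Between KO and WT stroma, again no member was called, in a table where 18 of 1191 genes were (1.51%, and 0.756% called higher in KO). Of 81 members, 61 (75.3%) had higher values in KO stroma, against 45.7% of all listed genes. Centred on the median of all listed genes, 66 (81.5%) were higher, and centred on genes outside the family, 70 (86.4%). The median log2 ratio was 0.13, against -0.05 for all genes and -0.08 outside the family. The summed level was 1.09-fold that of WT stroma (log2 0.12, interval 0.11 to 0.13). Small-subunit genes had higher values in KO for 26 of 33 with a median of 0.15 and large-subunit genes for 35 of 48 with a median of 0.11. The lowest adjusted p-value of a member in the authors' deposited table was 0.878, for Rplp0, and 76 of the 81 were at 1.

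Ratios in the stroma ran wider than in the epithelium, from -0.44 to 0.51 with a standard deviation of 0.18. The median counting half-width of a ratio was 0.08 in the stroma, where the WT pool was the shallowest, and 0.06 in the epithelium. Rps27rt had the highest ratio, 209 depth-scaled UMIs in KO and 147 in WT stroma, log2 0.51 [0.23, 0.79]. Rplp0 had 1963 and 1395, log2 0.49 [0.40, 0.58]. Rps9, a small-subunit protein that helps to form the entry channel of the messenger RNA, had 1748 and 1266, log2 0.47 [0.37, 0.56].

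The lowest ratio in the stroma was that of Rps27l, with 157 depth-scaled UMIs in KO and 213 in WT, log2 -0.44 [-0.69, -0.18]. The large-subunit genes Rpl37 (log2 -0.22), Rpl31 (-0.21) and Rpl38 (-0.18 [-0.25, -0.11]) came next. Rpl31 and Rpl35 both lie at the tunnel rim, and Rpl35 was at -0.11 [-0.24, 0.01] in the stroma. WT stroma, the denominator here, had the lowest sum of epithelial markers and the highest sums of smooth muscle, immune and erythrocyte markers of the 4 pools.

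Set side by side, the KO against WT ratios in epithelium and in stroma come from the same animals and different spots. Of 81 members, 61 had the same sign in both. Across these genes, which share libraries and are no independent replicates, Pearson's r was 0.52 and Spearman's rho 0.44, and r was 0.43 without the 2 genes farthest from the median. Over 1104 genes outside the family r was 0.43 and rho 0.33. Rps14, Rplp0 and Rpl32 had higher values in KO in both compartments, and Rps27l and Rpl38 had lower values in both. Rpl37 and Rpl31 also had lower values in both, but their epithelial ratios, each -0.07, turn to 0.03 and 0.04 after centring on all genes. The position of Rpl14, a large-subunit gene at log2 -0.08 [-0.14, -0.02] in the epithelium and 0.30 [0.21, 0.40] in the stroma, was opposite, though its epithelial value turns to 0.02 after centring on all genes.

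**Figure D2:**
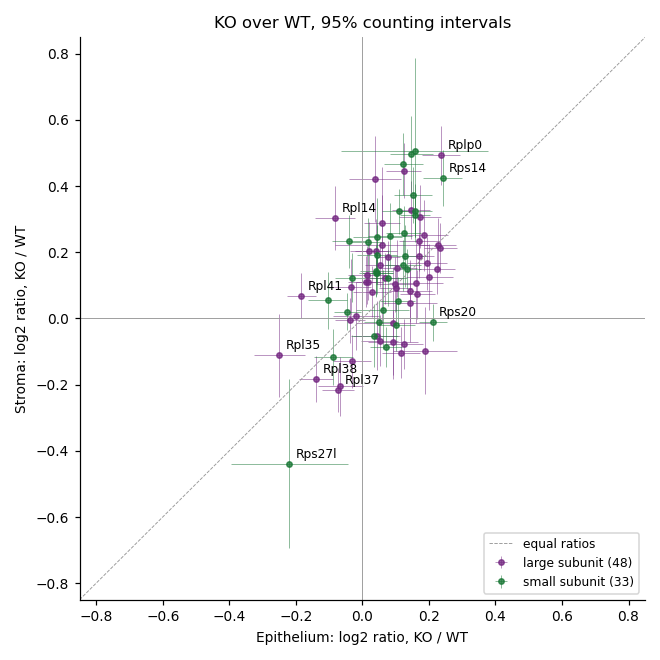
Log2 ratio of KO over WT in epithelium (x axis) and in stroma (y axis) for 81 ribosomal protein genes; lines are 95% counting intervals and the dashed line marks equal ratios. Most points lie in the upper right, with Rps27l at -0.22 and -0.44 in the lower left and Rplp0 at 0.24 and 0.49 near the upper right.

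Between epithelium and stroma of WT uteri, 509 of 1769 genes were called (28.8%), 231 of them higher in epithelium (13.1%). Among the 81 ribosomal protein genes 1 was called (1.23%). Of the members, 54 (66.7%) had higher values in epithelium, against 50.8% of all genes, and their median log2 ratio was 0.13, against 0.02 for all genes and 0.00 outside the family. The summed level was 1.05-fold that of stroma (log2 0.07, interval 0.06 to 0.08). Large-subunit genes had higher values in epithelium for 31 of 48 with a median of 0.09, and small-subunit genes for 23 of 33 with a median of 0.13.

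Rpl29, Rpl14 and Rpl36al were among the members with the highest ratios, and none of the 3 was called. Rpl29, a small large-subunit protein also described at the cell surface, stood at 1036 (KO) and 1009 (WT) depth-scaled UMIs in the epithelium and at 888 (KO) and 663 (WT) in the stroma. Its WT contrast was 1.52-fold (log2 0.61 [0.48, 0.73]), with an adjusted p-value of 0.0713 in the authors' deposited table. Rpl14 stood at 1617, 1711, 1479 and 1198, and its WT contrast was log2 0.51 [0.42, 0.61], with an adjusted p-value of 0.14 in the authors' deposited table. Rpl36al stood at 318, 306, 255 and 219, and its WT contrast was log2 0.48 [0.26, 0.70]. In all 3 genes WT stroma was the lowest pool.

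A smaller set of members had higher values in WT stroma. The largest difference was that of Rpl23a, a docking site for the signal recognition particle at the tunnel exit, on chromosome 11 at 78180932 to 78183584. Its level was 1861 (KO) and 1706 (WT) depth-scaled UMIs in the epithelium and 2068 (KO) and 2183 (WT) in the stroma, a WT log2 ratio of -0.36 [-0.43, -0.28] with an adjusted p-value of 0.36 in the authors' deposited table. Rps20, a protein of the small-subunit head, stood at 3700, 3193, 3970 and 4003, a WT log2 ratio of -0.33. Rps27a, made as a fusion with ubiquitin, stood at 2815, 2679, 3132 and 3324, a WT log2 ratio of -0.31. Rpl39, a short protein lining the tunnel, stood at 1897, 1750, 1986 and 2134, a WT log2 ratio of -0.29. In each of these 4 genes WT epithelium was the lowest pool and WT stroma the highest.

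Between epithelium and stroma of KO uteri, 271 of 2744 genes were called (9.88%, and 5.43% called higher in epithelium) and 0 of 82 ribosomal protein genes. Members had higher values in epithelium for 51 of 82 (62.2%), against 49.2% of all genes, with a median log2 ratio of 0.04 against -0.01 for all genes. The summed level was 1.01-fold that of stroma (log2 0.02, interval 0.01 to 0.02). Large-subunit genes had higher values in epithelium for 33 of 49 with a median of 0.07 and small-subunit genes for 18 of 33 with a median of 0.01, a difference of 0.05.

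High ratios were those of Rpl35 (log2 0.34 [0.25, 0.43]), Rpl36al (0.32 [0.16, 0.48]) and Rps27l (0.25 [0.04, 0.46]). The lowest was Rps27rt, with 137 depth-scaled UMIs in KO epithelium and 209 in KO stroma, log2 -0.61 [-0.81, -0.41] and an adjusted p-value of 0.22 in the authors' deposited table, the lowest p of a member in that comparison. Rps15, a protein of the small-subunit head (2593 and 2985), and Rplp1 (5062 and 5813) were each at -0.20. Rpsa, which besides its place in the small subunit is described as a laminin receptor, stood at 2864 and 3240, log2 -0.18.

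The WT and KO contrasts share no animals. Across 81 members their log2 ratios had a Pearson's r of 0.73 and a Spearman's rho of 0.74, 69 had the same sign, and r was 0.70 without the 2 farthest genes. For 1656 other genes r was 0.91 and rho 0.88. The members' ratios spanned less in KO: their standard deviation was 0.14, against 0.22 in WT. The WT ratio was the larger for 51 genes and the KO ratio for 30, with a median difference of 0.06 and a median counting error of the difference of 0.05. Large differences were those of Rpl14 (0.39), Rpl29 (0.38), Rps27rt (0.35), Rps9 (0.34) and Rpl28 (0.32), all with the higher signed ratio in WT. The counting error of the difference was 0.18 for Rps27rt, 0.06 for Rps9 and 0.05 for Rpl28. For Rps27rt both ratios were below 0, at -0.26 in WT and -0.61 in KO. The KO ratio was the larger by most for Rpl27 (-0.29) and Rps20 (-0.22). The epithelial marker sum also differed less between the compartments in KO than in WT (3388 and 1029 against 3931 and 460), and its part in these values was not tested.

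**Figure D3:**
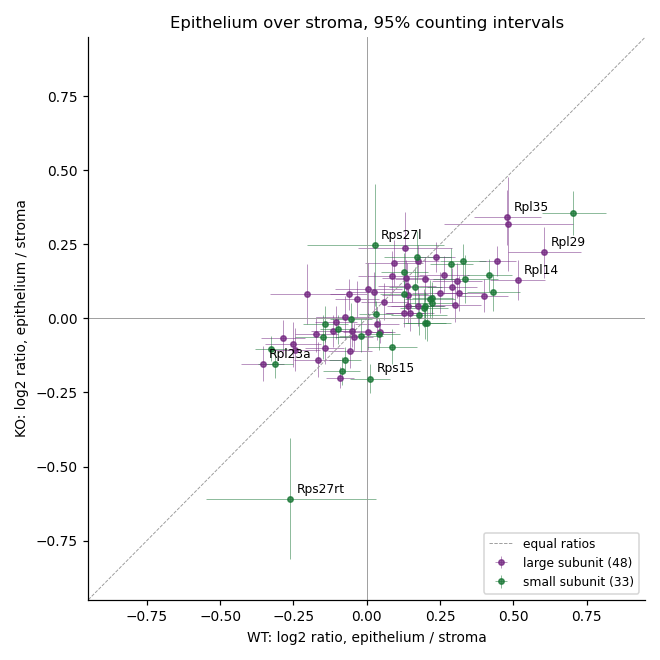
Log2 ratio of epithelium over stroma in WT (x axis) and in KO (y axis) for 81 ribosomal protein genes; lines are 95% counting intervals and the dashed line marks equal ratios. Points rise from Rpl23a at -0.36 and -0.15 to Rpl29 at 0.61 and 0.22 and beyond, and Rps27rt lies apart at -0.26 and -0.61.

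How narrow these ratios are was compared with other genes counted as deeply. Between 25 and 28 genes outside the family, depending on the comparison, had sums in both pools at or above the 10th percentile of the members. They included Actb, Eef1a1, Ftl1, Tmsb4x, the collagen-binding Dcn, immunoglobulin genes and mitochondrially encoded genes, and also Fau and Rack1, ribosomal proteins outside the name rule. Their median log2 ratio was 0.09 for KO against WT epithelium and -0.07 for KO against WT stroma. For epithelium against stroma it was -0.38 in WT and -0.03 in KO. In WT epithelium against stroma the standard deviation of their log2 ratios was 0.95, against 0.21 for the 73 members at that level, and 12 of 26 (46.2%) were called. In KO epithelium against stroma it was 0.48 against 0.11, and 3 of 25 (12.0%) were called. For KO against WT it was 0.31 against 0.10 in the epithelium and 0.44 against 0.16 in the stroma, with 0 called in either. Ratios beyond 0.5 in either direction were found for 0 of 83, 1 of 81, 3 of 81 and 1 of 82 listed members in the epithelial, stromal, WT and KO comparisons. For the genes counted as deeply it was 6 of 26, 5 of 28, 12 of 26 and 6 of 25. In KO against WT epithelium these were only Igha and the mitochondrially encoded mt-Atp6, mt-Co1, mt-Co2, mt-Co3 and mt-Nd4. In KO against WT stroma they were only Igha, Jchain, Malat1, mt-Co1 and mt-Cytb. The member counts have no limit on sums, and the member in the stromal and KO comparisons was Rps27rt, which lay below that limit. Among the genes counted as deeply, WT ratios ran from -2.66 for Malat1, -2.13 for Dcn and -1.99 for Igha to 1.10 for mt-Co1.

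**Figure D4:**
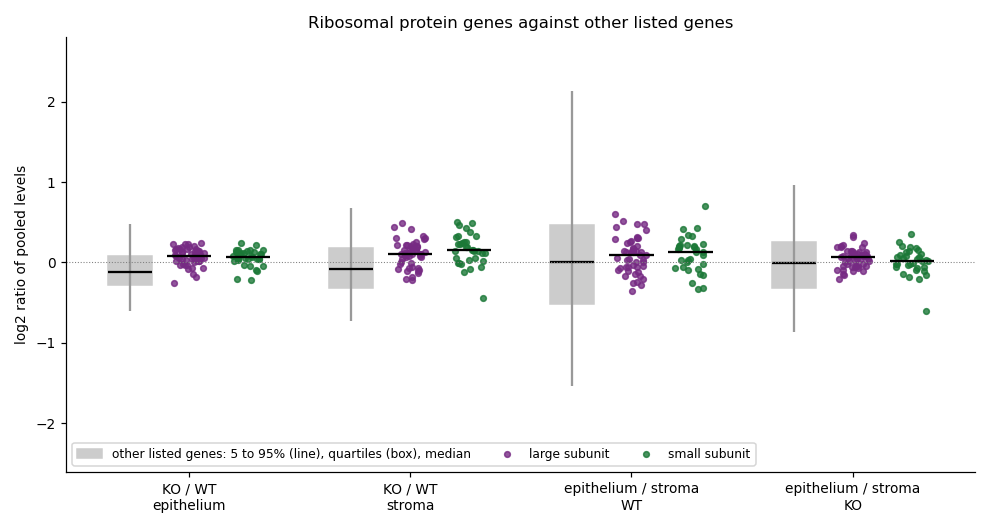
Log2 ratio of pooled levels (y axis) in the 4 comparisons for large-subunit and small-subunit genes, 1 point per gene with the median as a black line, beside all other listed genes (grey box for the quartiles, grey line from the 5th to the 95th percentile). Medians of the subunits lie between 0.01 and 0.15, and the points span less than the grey lines, most of all in WT epithelium against stroma.

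Groups of members with a shared place in the ribosome were described next, and none of them held a called gene. The whole family held 1 called member in WT epithelium against stroma and 0 in each other comparison, so this says little about the groups. In the family, 79.5% of members had higher values in KO epithelium, 75.3% in KO stroma and 66.7% in WT epithelium over WT stroma. The group counts below were not tested against these shares. The stalk, which recruits elongation factors (Rplp0, Rplp1, Rplp2 and Rpl12), had higher values in KO for 4 of 4 genes in both compartments, with a median of 0.10 in epithelium and 0.17 in stroma. Rplp1 was at 0.08 and 0.19, Rplp2 at 0.10 and 0.15, and Rpl12 at 0.10 and 0.10. Epithelium against stroma gave stalk medians of 0.03 in WT and 0.00 in KO.

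The 14 genes of the small-subunit head had higher values in KO for 13 in the epithelium (median 0.08) and for 12 in the stroma (median 0.18), and higher values in WT epithelium than WT stroma for 11 (median 0.18). The 8 genes of the exit tunnel and its rim had higher values in KO for 6 in the epithelium (median 0.08) and for 4 in the stroma (median 0.00). In this group 5 of 8 had lower values in WT epithelium than in WT stroma (median -0.14), among them Rpl23a, Rpl39 and Rpl31, while Rpl35 (0.48) and Rpl4 (0.26) were higher. The genes of this tunnel group therefore did not share 1 direction between the compartments of WT uteri.

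Rpl5 and Rpl11, which with the smallest ribosomal RNA bind Mdm2 and link ribosome assembly to p53, had KO against WT ratios of -0.03 and 0.02 in the epithelium and -0.13 and 0.20 in the stroma. Their levels were close in WT epithelium, at 1912 and 1810 depth-scaled UMIs. Of 9 genes mutated in Diamond-Blackfan anaemia, an inherited failure of red cell production, 8 had higher values in KO epithelium (median 0.05) and 7 in KO stroma (median 0.14). Rps19, the most often affected of these in patients, was at 0.04 and 0.14, and Rps26 at 0.12 and 0.26. The whole family had medians of 0.08 and 0.13, with 79.5% and 75.3% of members higher in KO.

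Other members with well-known roles are given by their ratios. Rpl3, near the peptidyl transferase centre, was at -0.02 in the epithelium and 0.01 in the stroma for KO against WT. Rpl10, which completes the large subunit late in assembly, was at 0.16 and 0.11, and Rpl13a, described as a translational silencer outside the ribosome, at 0.17 and 0.19. Rps2, Rps3 and Rps4x of the small subunit were at -0.09, 0.08 and 0.02 in the epithelium and at -0.12, 0.12 and 0.23 in the stroma. Rps6 stood at 1235 (KO) and 1205 (WT) depth-scaled UMIs in the epithelium and at 1290 (KO) and 1337 (WT) in the stroma, and its KO against WT ratios were 0.04 and -0.05.

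Paralogs differed from their parents in level and, in some cases, in direction. Rps27 and Rps27rt have identical coding sequences (252 of 252 bases) and transcripts that are 90.2% identical, and their windows above share the bases after the start while the bases before it differ. Reads of the pair could be split or misplaced by the counting, so that the values of both are uncertain. Rps27 stood at 2283, 2349, 2065 and 1757 depth-scaled UMIs in KO epithelium, WT epithelium, KO stroma and WT stroma, and Rps27rt at 137, 123, 209 and 147. In WT, Rps27 was higher in epithelium (log2 0.42 [0.34, 0.50]) while Rps27rt was at -0.26 [-0.55, 0.03].

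Rps27l, with a coding sequence 76.2% identical to that of Rps27, stood at 187, 217, 157 and 213 in the same order, low in both KO pools. Its KO against WT ratio was below 0 in both compartments, while that of Rps27 was -0.04 [-0.09, 0.01] in the epithelium and 0.23 [0.15, 0.31] in the stroma. Rpl36a and Rpl36al (87.7% identical in coding sequence) differed between the compartments of WT uteri, with log2 ratios of -0.25 [-0.35, -0.16] and 0.48 [0.26, 0.70]. Rpl22 and Rpl22l1 (68.2% identical), which regulate each other's production in other systems, did not part in this way: their ratios were 0.04 and 0.09 for KO against WT epithelium, -0.05 and -0.01 in the stroma, and 0.09 and 0.13 for WT epithelium against stroma.

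Proteins of the ribosome that carry other names were held beside the members. Fau, a fusion of a ubiquitin-like protein with a small-subunit protein, had KO against WT log2 ratios of 0.02 in the epithelium and 0.19 in the stroma. Rack1, a scaffold on the small-subunit head, was at 0.19 and 0.40. Neither was called in any comparison.

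Genes that work with ribosomes were read against the same background of calls over all listed genes, 0.12% for KO against WT epithelium, 1.51% for KO against WT stroma, 28.8% for WT and 9.88% for KO epithelium against stroma. With so few calls in both KO against WT tables, an absence of calls there says little about these lists. Of 6 listed elongation factor genes none was called in any comparison; Eef1a1, which delivers aminoacyl-tRNA, was at log2 -0.34 for KO against WT stroma and Eef2, the translocase, at 0.41. Of the initiation genes (33, 22, 25 and 29 listed of 34, in the order of comparisons above) 1 was called, Pabpc1, the poly(A)-binding protein, lower in WT epithelium than in WT stroma (log2 -0.83, adjusted p-value 0.0017 in the authors' deposited table). Of 6 genes of TOP messenger RNAs or nascent chain factors, Btf3 was called higher in WT epithelium (log2 0.70, adjusted p-value 0.0345 in the authors' deposited table). Tpt1, a classical TOP gene, had a log2 ratio of 0.00 in that comparison.

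Of 30 ribosome biogenesis genes 25, 7, 9 and 11 were listed. The snoRNP genes Nhp2 (log2 1.14, adjusted p-value 0.00599) and Nop10 (log2 0.76, adjusted p-value 0.038) were called higher in WT epithelium than WT stroma by the authors' deposited table. Nhp2 passed the listing limit through the epithelium alone, the pool where it is high. Of the mitochondrial ribosome genes 66, 2, 12 and 25 were listed. Mrps6, which also passed the limit through the epithelium alone, was called higher there in both genotypes, at log2 2.10 in WT (adjusted p-value 2.1e-07) and 0.88 in KO (adjusted p-value 0.0415) in the authors' deposited table.

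Sequence features were set against the ratios as descriptions across genes. The 83 genes lie on 19 chromosomes, 14 of them on chromosome 7 and 4 on X, with coding sequences of 138 to 1257 bases (median 453) and a coding GC content of 39.9 to 61.6% (median 52.6%). Spearman's rho of the ratio with GC content was 0.37 for KO against WT stroma, 0.20 for WT epithelium against stroma, 0.08 for KO against WT epithelium and -0.07 for KO epithelium against stroma. With coding length it lay between 0.03 and 0.13 in all 4 comparisons. With the mean level it was -0.42 for KO epithelium against stroma, -0.24 for WT epithelium against stroma, -0.09 for KO against WT stroma and -0.03 for KO against WT epithelium. The genes share libraries and the 4 comparisons share pools, so that these values are not independent of each other.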

How the data were processed

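Frozen uterine sections of 10 µm were profiled on Visium slides, per the labels' protocols, and GRCm38 is the build in the submitters' processing notes. Aligner, spot naming and test are not given in the sources. Per the file headers, each of the 4 tables deposited by the authors holds an average per group, a signal in UMIs scaled by size factors, together with a log2 fold change and an adjusted p-value (FDR). Animals of a genotype are pooled.

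UMI sums were recovered by solving the size factor sums from the deposited log2 fold changes. All products of average and size factor sum (100%) were whole to a tolerance of 0.01, and 0 genes differed between tables. Recovered totals per pool and table ran from 380990 to 1552415 UMIs. Ratios carry no pseudocount. No p-value was computed. The steps were tested on simulated data. GENCODE M21 and RefSeq gave positions and sequences. Python 3.11.15, NumPy 2.4.6, SciPy 1.17.1, pandas 2.3.3, matplotlib 3.10.9 and Biopython 1.88 were used.

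The members, gene lists, comparisons and alternatives were chosen with earlier results of these data known. Named were called members, the 4 highest and lowest ratios per comparison among members with at least 100 UMIs in both pools, fixed members by role, members near the listing limit and, per companion list, up to 4 genes with the largest ratios. Fau, Tpt1 and others were named for their role after their values were seen. Rpl27 was named for its value, the lowest difference between the WT and KO contrasts. Some items are not reported here.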

Additional observations from a re-analysis of the deposited data

Results flagged for a closer look

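For 5 members the KO against WT ratio pointed in opposite directions in epithelium and stroma with counting intervals that leave out 0 on both sides. The difference was not tested, since there is 1 pool per group. Rpl14 had a log2 ratio of -0.082 in epithelium and 0.30 in stroma, and Rpl41 of -0.18 and 0.069. Rpl23a had 0.13 and -0.078, Rpl39 0.12 and -0.10, and Rps27a 0.072 and -0.086. The epithelial value of Rpl14 became 0.023 when centred on all listed genes and 0.031 when centred on genes outside the family, so that its sign depends on the scaling. The other 4 genes kept opposite signs under these centrings, with stromal values of -0.0013 for Rpl23a, -0.009 for Rps27a and -0.027 for Rpl39 when centred on genes outside the family.

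Rps14 had a log2 ratio of epithelium over stroma of 0.087 in WT and -0.095 in KO, again with counting intervals that leave out 0 and with no test of the difference. Its KO stroma level, 2053 depth-scaled UMIs, was the highest of its 4 pools and its WT stroma level, 1531, the lowest.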

How the results depend on the processing

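No paired analysis was possible because each deposited value is an average over all 4 animals, and so no replicate could be left out. Centred on all listed genes, the members' median log2 ratio was 0.18 for KO against WT epithelium, 0.18 for KO against WT stroma, 0.11 for WT epithelium against stroma and 0.053 for KO epithelium against stroma; centred on genes outside the family it was 0.19, 0.21 and 0.057 for the epithelial, stromal and KO comparisons. The direction of all 4 medians was kept. Scaling without mitochondrially encoded genes, added after seeing the data, gave 0.10 for KO against WT epithelium, and the deposited log2 fold changes gave 0.14 for WT epithelium against stroma. There the large minus small difference was -0.093 for standard members only. The single call in WT was lost at an adjusted p-value of 0.01 and at an absolute log2 ratio of 1, leaving 0 members. In the order KO epithelium, WT epithelium, KO stroma and WT stroma, members held 28.9%, 27.6%, 34.1% and 35.4% of UMIs over all genes listed for the pool, 45.6%, 44.2%, 44.1% and 40.8% without mitochondrially encoded genes, and 41.7%, 41.5%, 41.3% and 38.7% for standard members only, and the cause of each shift is the changed set of genes in the sum. Centring changed the sign of 12 of 83 members for KO against WT epithelium, and of 5 (all genes) or 9 (genes outside the family) of 81 for KO against WT stroma. Counting error limits single genes to a median half-width of 0.06 to 0.08 on the log2 scale, and spread between animals is not measured.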
